A study of Mus musculus with 4 samples.

Results

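Nodal, the activins and the secreted proteins that restrain them were followed through ribosome footprints of mouse embryonic stem cells (ESCs) and embryoid bodies (EBs). The set was chosen by name with earlier results of these data known, so shares of all genes printed beside it are not a test. It holds 9 genes of the 20716 in the table. They are the ligands Nodal, Gdf3, Inhba and Inhbb, the co-receptor Tdgf1, the receptor Acvr2b, and the inhibitors Lefty1, Lefty2 and Fst. Each had 1 RefSeq coding sequence entry, and all 9 passed the minimum mean of 25 over the libraries, as did 9670 genes in all. Footprints are the short mRNA pieces that translating ribosomes shield from nuclease, so a count follows mRNA abundance and ribosome occupancy together.

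There were 4 libraries, 1 per group. The libraries were labelled WT ESCs, Mettl3-KO ESCs, WT EBs and Mettl3-KO EBs, and "knockout" is used here as that label. Mettl3 is the enzyme subunit that writes N6-methyladenosine (m6A) on mRNA, and EBs are aggregates that ESCs form in suspension. All libraries bear the strain label C57BL/6. The ESCs were held in the naive state without serum, with human LIF, the GSK3 inhibitor CHIR99021 and the MEK inhibitor PD0325901, and the EBs grew in non-adherent plates in serum medium, for which a span of 8 to 21 days is stated. Which day each EB library stands for, which part of Mettl3 was altered and how many clones were used: none of this is given in the sources used here. With 1 library a group, genotype, clone and library cannot be told apart, and no difference had a replicate check.

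Nodal and the activins are ligands of the TGF-β superfamily. They bind type II receptors such as Acvr2b together with type I receptors such as Acvr1b, and the active type I receptor phosphorylates Smad2 and Smad3, which enter the nucleus with Smad4. Nodal and Gdf3 also need a co-receptor of the Cripto family (Tdgf1), which the activins do not, and the pathway switches on its own secreted inhibitors Lefty1 and Lefty2. In the early mouse embryo Nodal signalling helps to form the primitive streak, mesoderm and endoderm, and it contributes to the primed pluripotent state.

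Reads on coding sequences numbered between 4075850 (Mettl3-KO EBs) and 11455539 (Mettl3-KO ESCs) per library. Values are the authors' normalised counts (reads divided by 1 factor per library), in which 1 read was worth between 0.533 and 1.56. Ratios are given with a 95% interval from the reads of both libraries, which covers counting error only, and a gene was counted as apart from 2-fold on the scale of value + 1. Mettl3 itself stood at 563 in WT ESCs, 298 in Mettl3-KO ESCs, 429 in WT EBs and 327 in Mettl3-KO EBs, 1.89-fold lower in the knockout in ESCs (1.69 to 2.12) and 1.31-fold lower in EBs (1.09 to 1.57). Both libraries labelled knockout thus held Mettl3 footprints, and these counts over the whole coding sequence do not show loss of the gene. Setting all libraries to equal totals in place of the authors' factors would move the median gene by 0.125 (log2) between the ESC libraries and by 0.117 between the EB libraries, towards the knockout.

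Sequence decides how well 3 of the genes could be counted, because reads without a unique place in the genome were counted apart and reach no gene. Lefty1 (NM_010094; chromosome 1, 180935022 to 180938401 in GRCm38) and Lefty2 (NM_177099; chromosome 1, 180893108 to 180899107) are neighbours, 35914 bases apart, and 91.9% of their 1107 coding bases are identical. Of all 28-base windows in each coding sequence, 39.1% also occur in the other gene. This is a lower bound, since windows that span an exon junction were searched only in the unspliced genome. Tdgf1 (NM_011562; chromosome 9, 110939608 to 110946158) has copies of 70.6% of its windows elsewhere, all 345 of them in the pseudogene Tdgf1-ps1 on chromosome 16 and some also on chromosomes 17 and 2. In Fst 0.0995% of windows were copied, and in the other 5 genes 0%. The most similar and the least similar 60-base stretches of Lefty1 and Lefty2 that lie within 1 coding exon are shown to make the limit visible. Capitals mark bases that differ between the genes, and coordinates are those of GRCm38, plus strand. A footprint from the first stretch, in coding exon 2, cannot be assigned, and one from the second, in coding exon 1 with 18 differing bases, can.
Lefty1, chr1:180936568-180936627: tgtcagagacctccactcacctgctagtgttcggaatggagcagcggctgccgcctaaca
Lefty2, chr1:180894156-180894215: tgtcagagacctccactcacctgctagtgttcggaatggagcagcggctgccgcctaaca
Lefty1, chr1:180935143-180935202: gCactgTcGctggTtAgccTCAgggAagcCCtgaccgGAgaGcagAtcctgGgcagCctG
Lefty2, chr1:180893217-180893276: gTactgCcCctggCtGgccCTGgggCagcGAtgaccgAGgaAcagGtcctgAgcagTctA

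For Tdgf1 the shared text is shown by a 60-base stretch of coding exon 3 on the minus strand, printed beside the same stretch of Tdgf1-ps1 on the plus strand of chromosome 16; no base differs.
Tdgf1, chr9:110943194-110943253: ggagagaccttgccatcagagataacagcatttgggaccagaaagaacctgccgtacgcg
Tdgf1-ps1, chr16:3730583-3730642: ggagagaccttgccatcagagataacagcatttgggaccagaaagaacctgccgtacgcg

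Between the genotypes, the set differed more in EBs than in ESCs. In Mettl3-KO EBs 5 of the 9 genes stood at least 2-fold above WT EBs (Nodal, Inhba, Inhbb, Lefty1 and Lefty2), and 1 (Fst) at least 2-fold below. Among all genes compared, 15.2% lay that far above and 12.2% that far below. The median log2 fold of the 9 genes was 1.49, against −0.07 over all genes. Between the ESC libraries 0 of the 9 stood at least 2-fold higher in the knockout and 2 (Lefty2 and Tdgf1) at least 2-fold lower, where 10.6% and 4.42% of all genes did, and the median was −0.02 against −0.00 over all genes. Since EBs are mixtures, fewer footprints in one EB library may mean fewer cells of a type, less RNA per cell or fewer ribosomes per mRNA. These cannot be told apart.

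Among the ligands, Nodal (NM_013611; chromosome 10, 61417972 to 61425338) stood at 1776 in WT ESCs, 1753 in Mettl3-KO ESCs, 1135 in WT EBs and 3996 in Mettl3-KO EBs. The 2 ESC libraries matched within counting error (1.01-fold lower in the knockout, interval 0.960 to 1.07, where a bound under 1 means higher; log2 fold −0.02, or 0.11 with equal totals), WT EBs were lowest and Mettl3-KO EBs highest. Mettl3-KO EBs exceeded WT EBs 3.52-fold (3.24 to 3.83). From ESCs to EBs, Nodal was 1.57-fold lower in WT (1.44 to 1.70) and 2.28-fold higher in the knockout (2.17 to 2.40).

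Gdf3 (NM_008108; chromosome 6, 122605403 to 122610087), a Nodal-related ligand of pluripotent cells, kept the narrowest range of the ligands. It stood at 2042 in WT ESCs, 2523 in Mettl3-KO ESCs, 1534 in WT EBs and 2830 in Mettl3-KO EBs. Its order followed that of Nodal in EBs, with the knockout 1.85-fold above WT (1.71 to 2.00), and in ESCs the knockout was 1.24-fold higher (1.18 to 1.30). Neither reached 2-fold, although the EB ratio did with equal totals (log2 fold 1.00).

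Inhba (NM_008380; chromosome 13, 16004256 to 16031609), the subunit of activin A, was the least abundant gene of the set in both ESC libraries. It stood at 18.7 in WT ESCs (24 reads), 15.5 in Mettl3-KO ESCs (29 reads), 77.9 in WT EBs (50 reads) and 263 in Mettl3-KO EBs (176 reads). Both EB libraries lay above both ESC libraries, by 4.17-fold in WT (2.52 to 7.10) and 17.0-fold in the knockout (11.4 to 26.1). Mettl3-KO EBs exceeded WT EBs 3.37-fold (2.45 to 4.71), and a difference between the ESC libraries was not detectable at this depth (1.21-fold lower, 0.673 to 2.15).

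Inhbb (NM_008381; chromosome 1, 119415463 to 119422248), the subunit of activin B, had the widest EB contrast of the 9. It stood at 244 in WT ESCs, 272 in Mettl3-KO ESCs, 12.5 in WT EBs and 385 in Mettl3-KO EBs. WT EBs alone were low, with 8 reads, and the other 3 libraries lay within a narrow band. Mettl3-KO EBs exceeded WT EBs 30.9-fold (15.4 to 72.3), and the interval is wide because of those 8 reads. From ESCs to EBs, Inhbb was 19.5-fold lower in WT (9.80 to 45.7) and 1.42-fold higher in the knockout (1.22 to 1.65).

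**Figure D1:**
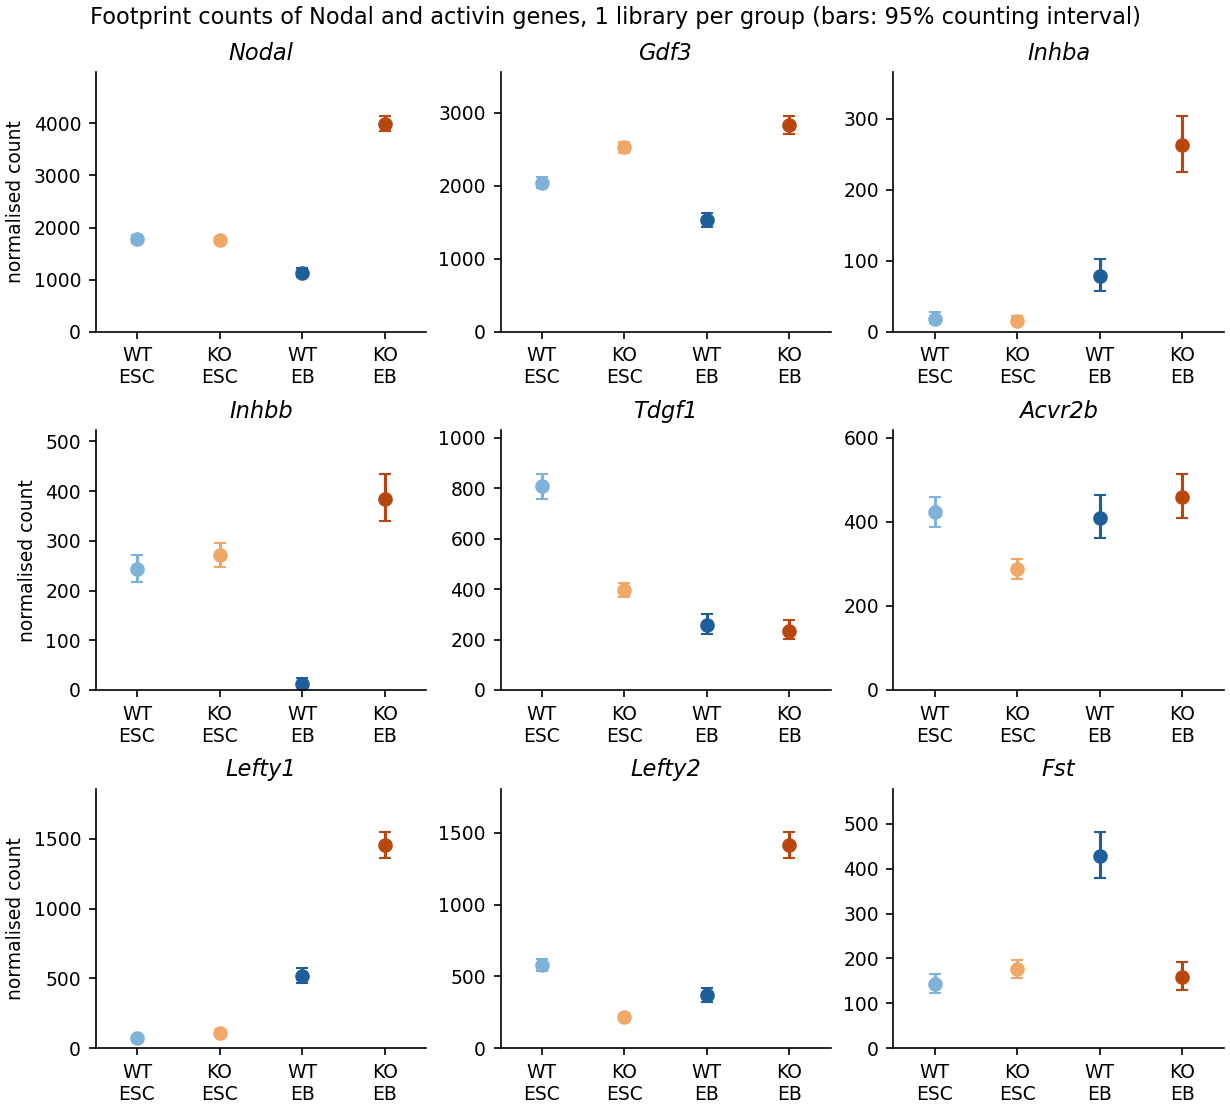
Normalised footprint counts (vertical axes, linear from 0, a scale of its own in each panel) of the 9 genes in the 4 libraries (horizontal axes); points are single libraries and bars 95% counting intervals. Mettl3-KO EBs hold the highest value of Nodal (3996), Gdf3, both activin subunits and both Lefty genes, and WT EBs the highest value of Fst (429).

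The mix of activin subunits can be read within a library, where no scaling enters. Reads of Inhbb outnumbered those of Inhba 13.0 to 1 in WT ESCs (8.61 to 20.7) and 17.6 to 1 in Mettl3-KO ESCs (12.1 to 26.5). In WT EBs the ratio was 0.160 (0.0655 to 0.340), so that Inhba outnumbered Inhbb. In Mettl3-KO EBs it was 1.47 (1.21 to 1.79). The coding sequences are 1275 and 1236 bases long, so these ratios are close to ratios per length.

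The co-receptor and receptor showed no EB contrast of this size. Tdgf1 (Cripto), at the cell surface, stood at 807 in WT ESCs, 396 in Mettl3-KO ESCs, 259 in WT EBs and 236 in Mettl3-KO EBs. WT ESCs were highest, and the EB libraries did not differ beyond counting error (1.10-fold lower in the knockout, 0.877 to 1.37). In ESCs the knockout was 2.04-fold lower (1.85 to 2.24), which fell short of 2-fold with equal totals (log2 fold −0.90). It was 3.12-fold lower in EBs than in ESCs in WT (2.65 to 3.70) and 1.68-fold lower in the knockout (1.41 to 2.01). With 70.6% of windows copied, these counts rest on a minor part of the gene.

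Acvr2b (NM_007397; chromosome 9, 119401583 to 119442148), a type II receptor shared by Nodal and activins, was the steadiest gene of the set. It stood at 423 in WT ESCs, 286 in Mettl3-KO ESCs, 410 in WT EBs and 460 in Mettl3-KO EBs. Mettl3-KO ESCs alone were lower, 1.48-fold below WT ESCs (1.31 to 1.67). Acvr2b stayed within 2-fold in all 4 comparisons of 2 libraries.

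The Lefty genes, whose products block the co-receptor and Nodal itself, stood far apart in WT ESCs and level in Mettl3-KO EBs. Lefty1 stood at 73.9 in WT ESCs, 111 in Mettl3-KO ESCs, 519 in WT EBs and 1457 in Mettl3-KO EBs. Lefty2 stood at 577 in WT ESCs, 214 in Mettl3-KO ESCs, 371 in WT EBs and 1415 in Mettl3-KO EBs. In Mettl3-KO EBs both reached their highest value, 2.81-fold (2.48 to 3.19) and 3.82-fold (3.31 to 4.42) above WT EBs.

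In ESCs the paralogues differed in direction. Lefty1 was 1.50-fold higher in the knockout (1.17 to 1.93), and Lefty2 2.69-fold lower (2.38 to 3.04). From ESCs to EBs Lefty1 was higher in both genotypes, 7.02-fold in WT (5.57 to 8.91) and 13.1-fold in the knockout (11.3 to 15.3). Lefty2 was 1.55-fold lower in WT EBs than in WT ESCs (1.34 to 1.81) and 6.60-fold higher in Mettl3-KO EBs than in Mettl3-KO ESCs (5.87 to 7.43).

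Because both coding sequences have the same length and the same share of copied windows, their read ratio within a library compares the paralogues directly. Lefty2 outnumbered Lefty1 7.80 to 1 in WT ESCs (6.29 to 9.76) and 1.93 to 1 in Mettl3-KO ESCs (1.63 to 2.30). In WT EBs the ratio was 0.715 (0.603 to 0.847), and in Mettl3-KO EBs 0.971 (0.887 to 1.06), which includes equality. The dominant paralogue thus differed between the WT stages beyond counting error.

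Both Lefty genes together, per length of coding sequence, stood at 0.352 of Nodal in WT ESCs and 0.179 in Mettl3-KO ESCs. In WT EBs they reached 0.755 of Nodal and in Mettl3-KO EBs 0.691. With length counted over windows without a copy elsewhere, the ratios were 0.578 in WT ESCs, 0.293 in Mettl3-KO ESCs, 1.24 in WT EBs and 1.13 in Mettl3-KO EBs. For the Lefty genes this length is an upper bound, since their share of copied windows is a lower bound. By either length both EB libraries had a higher ratio than either ESC library, and whether the inhibitors lay below or above Nodal in EBs depended on the length used.

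Fst (NM_008046; chromosome 13, 114452262 to 114458989), follistatin, which binds activins and keeps them from their receptors, differed in direction from both activin subunits between the EB libraries. It stood at 142 in WT ESCs, 175 in Mettl3-KO ESCs, 429 in WT EBs and 158 in Mettl3-KO EBs. WT EBs alone were high, and the other 3 libraries lay between 142 and 175. Mettl3-KO EBs were 2.71-fold below WT EBs (2.16 to 3.42), and the change from ESCs to EBs was 3.01-fold higher in WT (2.49 to 3.65) but 1.11-fold lower in the knockout (0.889 to 1.39).

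Per length, footprints of Fst came to 0.652 of those of Inhba and Inhbb together in WT ESCs and 0.734 in Mettl3-KO ESCs. In WT EBs the ratio was 5.83, from 275 reads of Fst and 58 of the subunits. In Mettl3-KO EBs it was 0.296, from 106 and 434 reads. The ESC libraries were alike in this measure and the EB libraries lay on opposite sides of them.

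**Figure D2:**
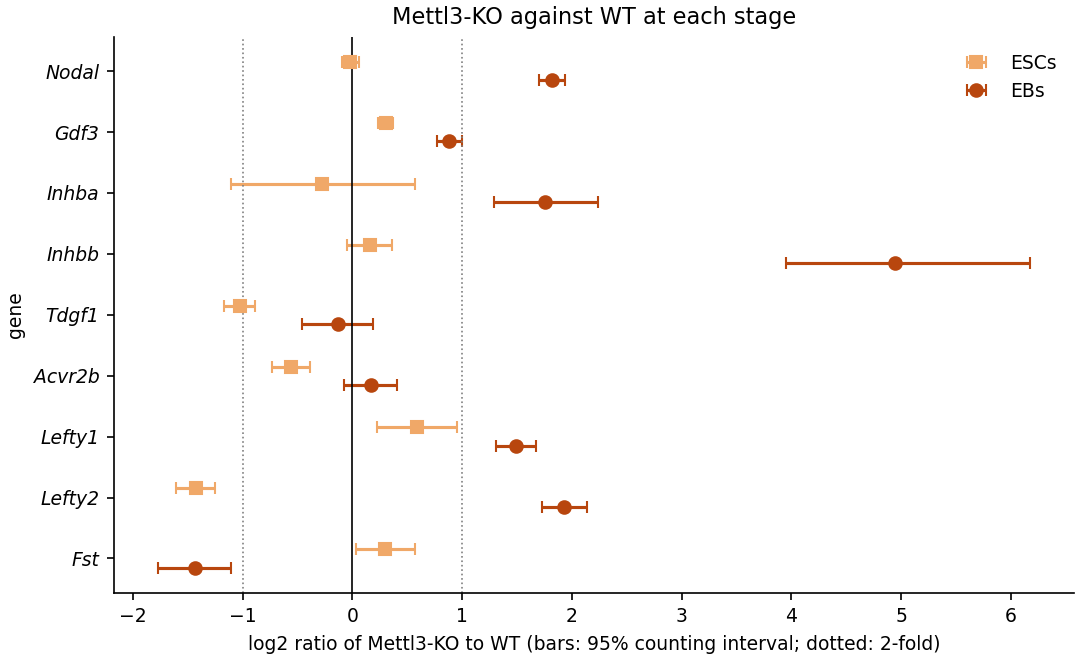
Log2 ratio of Mettl3-KO to WT (horizontal axis) for each gene (vertical axis), in ESCs (squares) and EBs (circles); bars are 95% counting intervals and dotted lines mark 2-fold. In EBs 5 genes lie right of the upper line and Fst left of the lower one, while in ESCs Lefty2 and Tdgf1 lie left of the lower line.

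Changes from ESCs to EBs were set side by side for the genotypes, which share no library in this comparison. In WT 3 of the 9 genes stood at least 2-fold above ESCs in EBs (Inhba, Lefty1 and Fst) and 2 below (Inhbb and Tdgf1), against 11.0% and 8.25% of all genes. In the knockout 4 were at least 2-fold higher (Nodal, Inhba, Lefty1 and Lefty2) and 0 lower, against 9.31% and 6.65%. Inhba and Lefty1 were on both lists. The median log2 fold of the 9 genes was −0.41 in WT and 0.68 in the knockout, beside −0.02 and −0.08 over all genes. These values share libraries with the comparisons of genotypes above and are the same data in another arrangement.

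The difference between the log2 changes, knockout minus WT, was 1 or more for 4 genes and −1 or less for 1, where 11.4% and 12.5% of all genes reached those limits. It was 4.69 for Inhbb, with a counting interval of 3.76 to 5.83 without the added 1. It was 3.35 for Lefty2 (3.09 to 3.63), 2.00 for Inhba (1.12 to 2.93) and 1.83 for Nodal (1.69 to 1.98). The other members of the Nodal branch lay below the limit at 0.91 for Lefty1 (0.51 to 1.30), 0.89 for Tdgf1 (0.55 to 1.24) and 0.58 for Gdf3 (0.45 to 0.71), and the receptor Acvr2b stood at 0.72 (0.43 to 1.02). Fst alone was negative, at −1.73 (−2.15 to −1.32). Nodal, Gdf3, Inhbb and Lefty2, 4 of the 9, were lower in EBs in WT and higher in the knockout with both intervals excluding no change, as were 8.19% of all genes. The reverse held for 0 of the 9 and for 8.49% of all genes. Such intervals narrow as reads rise, so these shares set genes of unlike depth side by side. With the libraries scaled to the same upper quartile Lefty1 and Tdgf1 also reached 1 (1.04 and 1.03); over all genes that scaling turned the split from 1103 above and 1205 below to 1350 and 967.

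**Figure D3:**
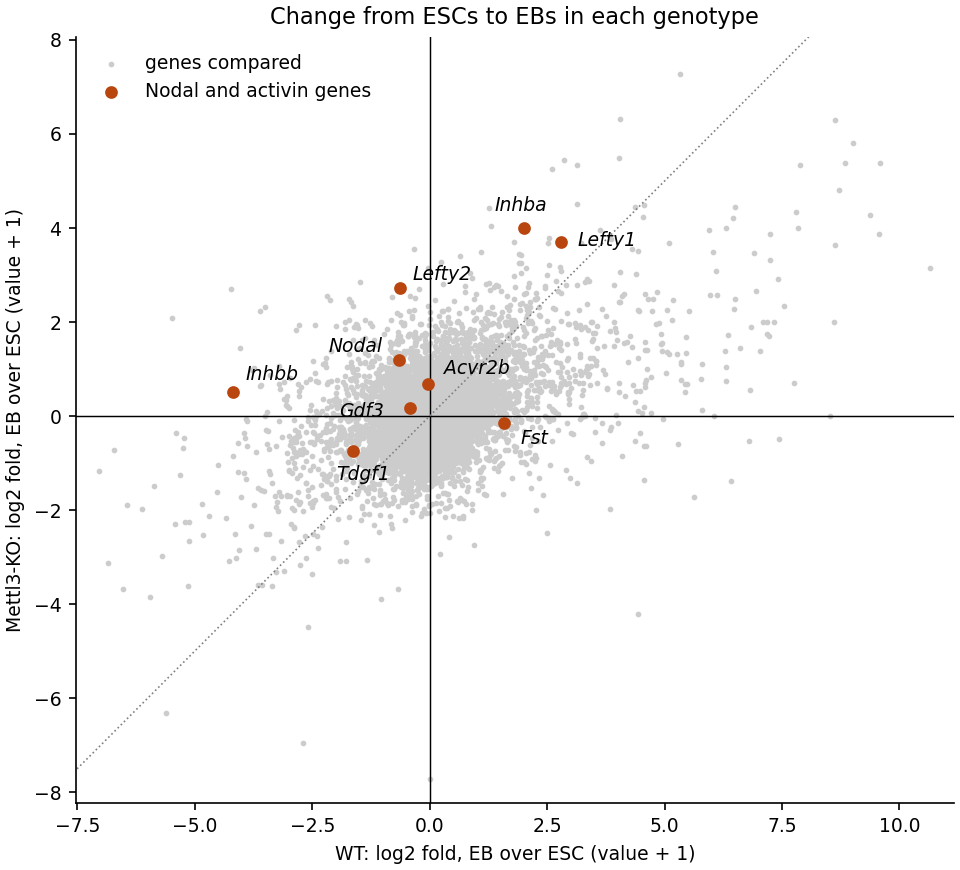
Log2 change from ESCs to EBs in WT (horizontal axis) and in Mettl3-KO (vertical axis), on the scale of value + 1; grey points are the 9670 genes compared, orange points the 9 genes of the set, and the dotted line marks equal change. Inhbb, Lefty2 and Nodal lie left of 0 in WT and above 0 in the knockout, and Fst lies right of 0 in WT and just below 0 in the knockout.

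A count test on the recovered reads, with genotype and stage as additive terms, used the remaining contrast between the libraries as its error. By edgeR's quasi-likelihood test Lefty1 was higher in EBs than in ESCs (log2 fold 3.30, adjusted p = 0.0345), and the other 8 genes had adjusted p between 0.141 and 0.947 for stage. That test called 0.207% of all genes higher and 0.0517% lower in EBs. By DESeq2, which called 2.89% higher, Lefty1 (adjusted p = 6.96e-12) and Inhba (log2 fold 3.13, SE 0.743, adjusted p = 0.00171) were higher in EBs. For genotype 0 of 9670 genes passed by edgeR, although 1556 had an unadjusted p below 0.05. The calls of DESeq2 for genotype were 2.60% of genes higher and 0.734% lower. None of the 9 genes was among these: adjusted p for genotype lay between 0.237 and 0.894 by edgeR, and Inhbb had the lowest by DESeq2, 0.0583. An additive fit takes a genotype difference that depends on stage, as in Nodal and Lefty2, as error.

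Levels were compared between genes per kilobase of coding sequence. Over the whole coding length, Nodal and Gdf3 held the upper places in each of the 4 libraries, an order that Tdgf1 unsettles because most of its windows are copied. In WT ESCs Gdf3 stood at 1855 per kilobase and Nodal at 1668, beside a median of 216 over all genes compared. In Mettl3-KO EBs the order was turned, with Nodal at 3752 and Gdf3 at 2570, beside a median of 217. Nodal then exceeded 98.6% of genes, compared with 92.5% in WT ESCs, 94.0% in Mettl3-KO ESCs and 86.3% in WT EBs.

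At the other end, Inhba stood at 14.7 per kilobase in WT ESCs and 12.1 in Mettl3-KO ESCs, above 6.76% and 3.94% of genes. In WT EBs Inhbb took the last place at 10.1 (3.72% of genes below it), and in Mettl3-KO EBs Fst did at 153. Lefty1 moved from 66.8 per kilobase in WT ESCs, above 24.9% of genes, to 1316 in Mettl3-KO EBs, above 90.4%. Acvr2b held the middle at 178 to 285, above 43.4% to 57.2% of genes.

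Some neighbours in this order had overlapping counting intervals. They were Nodal and Tdgf1 in WT ESCs, the run Inhbb, Lefty2, Acvr2b and Fst in Mettl3-KO ESCs, and the run Tdgf1, Lefty1, Fst and Lefty2 in WT EBs. In Mettl3-KO EBs they were Lefty1 with Lefty2, Inhbb with Acvr2b, and Inhba with Fst. With length counted over windows that have no copy elsewhere, Tdgf1 would take the first place in 3 of the 4 libraries. It would stand at 5605 per kilobase in WT ESCs against 1902 for Gdf3, at 2749 against 2349 in Mettl3-KO ESCs, and at 1797 against 1428 in WT EBs. In Mettl3-KO EBs it would stand at 1638, below Nodal at 3850, Gdf3 at 2635 and both Lefty genes at 2214 and 2151.

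Outside the set, the gene with the most similar pattern was sought among 7344 named genes with a mean of at least 100, by the root mean square distance of centred log2 values over the 4 libraries. Nearest to Nodal were Lrp1 (distance 0.04), Atp6v0c (0.10) and Lrrc28 (0.11). Lrp1 stood at 2021, 2145, 1319 and 4853 in WT ESCs, Mettl3-KO ESCs, WT EBs and Mettl3-KO EBs. Nearest to Lefty2 were Slco4a1 (0.16), the ligand Tgfb1 (0.25) and Rps12 (0.38). Nearest to Inhbb were Tesc (0.40), Hhip (0.44) and Pdgfc (0.45), to Fst Inpp5f (0.04), Ehhadh (0.05) and Rhpn2 (0.08), and to Lefty1 Pla2g10 (0.37), Rnf128 (0.39) and Igfbp4 (0.46). Gdf3 was nearest to Gpr107, Fitm2 and Sde2 (0.02 to 0.04), Tdgf1 to Olig2, Pnma5 and Hydin (0.08 to 0.09), and Acvr2b to Rps15, Rplp1 and Calr (0.01 to 0.02). Within the set, Lefty1 lay nearest to Inhba (0.33) and Nodal to Gdf3 (0.40). Inhba itself lay under the mean of 100 and was not used for this search, and each distance rests on 4 values.

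The rest of the pathway was described from a list of 62 other genes in 7 roles. Of these 35 passed the minimum mean and 15 had no read in any library. Of those 15, 14 had 2 or more coding sequence entries, whose shared stretches count as ambiguous; Smad2 (an effector of the pathway), Eomes, Furin (a protease that matures Nodal), Tgfbr2 and Skil were among them, and their 0 says nothing of expression. In EBs 11 of the 35 stood at least 2-fold higher in the knockout and 5 lower, with a median of 0.34, beside 15.2% and 12.2% of all genes. In ESCs 7 stood higher and 2 lower, with a median of 0.03, beside 10.6% and 4.42%. From ESCs to EBs 6 were higher and 4 lower in WT (median 0.11), beside 11.0% and 8.25%. In the knockout 9 were higher and 2 lower (median 0.05), beside 9.31% and 6.65%.

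The 3 other ligands that passed, Inhbe, Tgfb1 and Tgfb2, were at least 2-fold higher in Mettl3-KO EBs than in WT EBs. Tgfb2 passed the minimum mean of 25 only through the knockout libraries. It stood at 46.9 in Mettl3-KO ESCs and 40.3 in Mettl3-KO EBs, against 9.34 and 12.5 in WT. Among ligands below that mean, Gdf11 was lower in Mettl3-KO EBs than in WT EBs (22.4 and 35.9). Inha, Inhbc and Tgfb3 were higher, at low values. Inhbe, another activin subunit, had 10 reads in WT EBs and 67 in Mettl3-KO EBs (6.42-fold higher, 3.28 to 14.0), and was 2.29-fold lower in Mettl3-KO ESCs than in WT ESCs (1.55 to 3.42). Tgfb1 stood at 93.4, 52.3, 71.7 and 224 in the order WT ESCs, Mettl3-KO ESCs, WT EBs and Mettl3-KO EBs, 3.12-fold higher in Mettl3-KO EBs (2.23 to 4.45). Ltbp3, which holds latent TGF-β in the matrix, was higher in the knockout at both stages, 2.52-fold in ESCs (1.88 to 3.42) and 4.21-fold in EBs (3.11 to 5.79). Pcsk6, a protease that processes Nodal, stood at 1936 in WT ESCs, 1689 in Mettl3-KO ESCs, 687 in WT EBs and 1293 in Mettl3-KO EBs, and WT EBs were 2.82-fold below WT ESCs (2.54 to 3.12).

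Receptors and Smads lay closer to equality. Of the other co-receptors and receptors 0 of 4 stood at least 2-fold higher and 1 lower in Mettl3-KO EBs. The type I receptor Acvr1b stood at 771 in WT ESCs, 512 in Mettl3-KO ESCs, 584 in WT EBs and 649 in Mettl3-KO EBs, and the type II receptor Acvr2a between 233 and 300.0 in all 4. The exception was Tgfbr3 (betaglycan, a co-receptor of TGF-β and inhibin), at 703 in WT EBs and 173 in Mettl3-KO EBs (4.06-fold lower, 3.30 to 5.02). Among Smads and partners 0 of 4 passed 2-fold in EBs, with Smad4 1.53-fold lower (1.37 to 1.71), Smad3 1.08-fold lower (0.856 to 1.36) and the Nodal cofactor Foxh1 1.18-fold higher (1.02 to 1.37). In ESCs Smad3 was 2.46-fold higher in the knockout (2.10 to 2.90). Zfyve9, which anchors Smad2 and Smad3 for phosphorylation, was 2.07-fold lower in Mettl3-KO EBs than in Mettl3-KO ESCs (1.79 to 2.40).

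Inhibitors outside the set were mixed. Bambi, a decoy receptor, was higher in the knockout at both stages, 2.04-fold in ESCs (954 against 320 reads) and 2.50-fold in EBs (1.92 to 3.26). Fstl3, a relative of follistatin, was higher in EBs than in ESCs in both genotypes, 11.4-fold in WT (5.07 to 30.3) and 7.67-fold in the knockout (4.88 to 12.4), unlike Fst. Pmepa1, an intracellular brake on Smad2 and Smad3, stood at 250 in WT ESCs, 290 in Mettl3-KO ESCs, 67.0 in WT EBs and 245 in Mettl3-KO EBs. It was 3.65-fold higher in Mettl3-KO than in WT EBs (2.60 to 5.24), with WT EBs alone low. Ppm1a, a phosphatase reported to act on Smad2 and Smad3, was 2.31-fold lower in Mettl3-KO EBs (2.02 to 2.65).

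Genes that Nodal or Smad2/3 activate in other settings did not share one direction. Of 8 that passed, 3 stood at least 2-fold higher (Gsc and Pou5f1 among them) and 2 lower (Foxa2 and Tagln) in Mettl3-KO than in WT EBs. Below the minimum mean, Fgf5 stood at 84.2 in WT EBs and 2.99 in Mettl3-KO EBs, and Lhx1 at 24.9 and 2.99. Mixl1 (26.5 and 14.9) and T (4.68 and 0) were also lower in Mettl3-KO EBs, and 3 targets had no read. Gsc (goosecoid), a classic Nodal target of the streak, stood at 155 in WT ESCs, 250 in Mettl3-KO ESCs, 12.5 in WT EBs and 82.1 in Mettl3-KO EBs, and both EB libraries lay below their ESC library. Foxa2, an endoderm factor that is also among the visceral endoderm markers, had 502 in WT EBs against 44.8 in Mettl3-KO EBs (11.2-fold lower, 7.70 to 16.9). The smooth-muscle gene Tagln was 2.91-fold lower in Mettl3-KO EBs (2.20 to 3.88). Ccn2 was higher in EBs than in ESCs by 3.14-fold in WT (2.91 to 3.38) and 2.07-fold in the knockout (1.91 to 2.24).

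**Figure D4:**
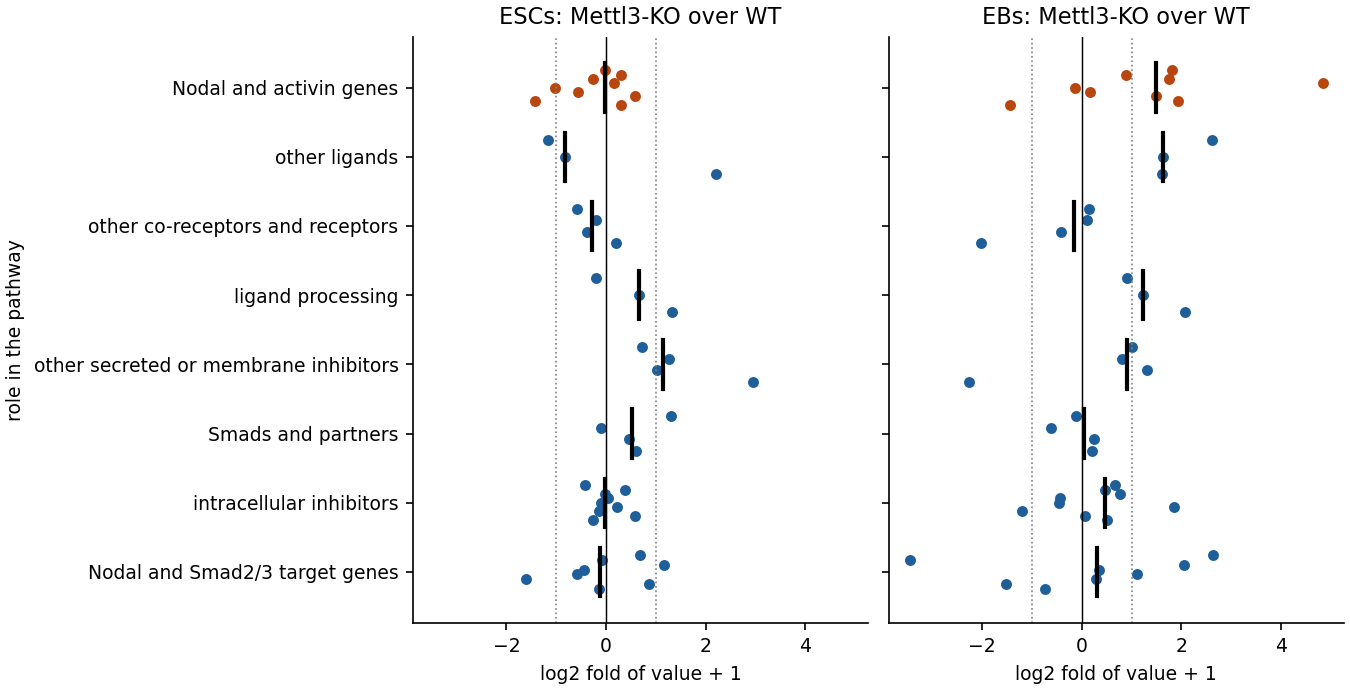
Log2 fold of Mettl3-KO over WT (horizontal axes, value + 1) in ESCs (left) and EBs (right) for the 9 genes (orange) and the 35 other pathway genes that passed the minimum mean (blue), by role (vertical axis); points are genes, black bars medians and dotted lines 2-fold. In EBs the median of the 9 genes is 1.49, that of the other receptors −0.16 and that of the Smads and partners 0.05.

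Marker genes of cell types moved with the EB contrast, and their part in it was not tested. The 11 visceral endoderm markers summed to 46779 in WT EBs and 1754 in Mettl3-KO EBs, from 206 and 248 in the ESC libraries, with Ttr at 1612 and 26.9 and Afp at 8637 and 328 in the EB libraries. The 7 pluripotency markers summed to 18415 in WT ESCs, 13867 in Mettl3-KO ESCs, 16789 in WT EBs and 22323 in Mettl3-KO EBs. Pou5f1 was 2.15-fold (1.99 to 2.32) and Nanog 1.27-fold (1.20 to 1.34) higher in Mettl3-KO than in WT EBs. Pou5f1 has 2 entries, and 25.3% of its windows and 27.1% of those of Nanog are copied elsewhere. Their counts thus rest on part of each gene. Of the set, Nodal (3.52-fold), Lefty2 (3.82-fold), Inhba, Inhbb and Lefty1 lay above both. Gdf3 (1.85-fold) lay between them, and Acvr2b, Tdgf1 and Fst lay below both. The pluripotency markers varied among themselves: Dppa5a was lower (909 in WT EBs and 679 in Mettl3-KO EBs) and Utf1 nearly level (5104 and 5553). Sox2 (3067 and 4524) and Zfp42 (2523 and 3675) were higher. The order beside 2 of the 7 markers was not tested as a measure of cell share. The 8 fibroblast markers summed to 400.1, 1988, 1164 and 7723 in the order WT ESCs, Mettl3-KO ESCs, WT EBs and Mettl3-KO EBs, with Col3a1 at 62.3 in WT EBs and 1094 in Mettl3-KO EBs. All 11 visceral endoderm markers were lower in Mettl3-KO than in WT EBs. Higher were 6 of the 7 pluripotency markers and 6 of the 8 fibroblast markers, with 2 of the fibroblast markers at 0. The pluripotency count includes Esrrb, which has 2 entries and stood at only 1.56 in WT EBs and 11.9 in Mettl3-KO EBs. The other lists were mixed. The 8 mesoderm and streak markers summed to 516 in WT EBs and 914 in Mettl3-KO EBs, with 4 higher and 3 lower: Hand1 went with the sum (40.5 and 298) as did Twist1 (21.8 and 212), while Snai1 (411 and 339) and Mixl1 (26.5 and 14.9) went against it. Heart and muscle markers summed to 538 and 194 with 2 higher and 3 lower, Myl3 at 301 and 67.2 but Nkx2-5 at 12.5 and 35.8. Neural markers summed to 748 and 1311 with 2 higher and 2 lower, a sum carried by Tubb3 (553 and 1133) while Sox1 stood at 26.5 and 2.99. The 7 trophoblast markers summed to 5369 and 3402 with 2 higher and 4 lower. That sum was carried by the keratins Krt18 (3597 and 2005) and Krt8 (1334 and 800), while Gata3 stood at 349 and 528. The 6 blood markers summed to 62.3 and 119 with 3 higher and 0 lower. In the ESC libraries, WT before knockout, these 5 sums were 110 and 311 for mesoderm, 132 and 133 for heart, 1865 and 1967 for neural, 312 and 968 for trophoblast, and 11.7 and 44.8 for blood. Markers at 0 in all 4 libraries were Eomes, Pdgfra, Postn, Tnnt2, Myh6, Pax6, Map2, Elf5 and Ptprc, which all have 2 or more entries, and the globins Hba-a1 and Hbb-bh1.

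Since Mettl3 writes m6A, the coding sequences were searched on the sense strand for GGACT, a common core of its consensus. Matches numbered 2 in Nodal, 2 in Gdf3, 1 in Inhba, 0 in Inhbb, 2 in Tdgf1, 3 in Acvr2b, 2 in Lefty1, 1 in Lefty2 and 2 in Fst. Per kilobase this was between 0 (Inhbb) and 3.88 (Tdgf1), beside a median of 1.08 and quartiles of 0.420 and 1.76 over 9597 coding sequences, of which 77.2% held a match. Tdgf1, Fst (1.94), Nodal (1.88), Acvr2b (1.86), Gdf3 (1.82) and Lefty1 (1.81) lay above the upper quartile. Lefty2 (0.903), Inhba (0.784) and Inhbb lay below the median. A match is not a measured m6A site. Shown for Nodal, Lefty1 and Fst are the matches that have 18 bases on each side within their exon. They lie in coding exon 2 of Nodal (plus strand), coding exon 1 of Lefty1 (plus strand) and coding exon 6 of Fst (minus strand). Of the genes at least 2-fold higher in Mettl3-KO EBs, Nodal and Lefty1 held 2 matches, Inhba and Lefty2 1 and Inhbb 0. Fst, at least 2-fold lower, held 2. Gdf3, Tdgf1 and Acvr2b, within 2-fold, held 2, 2 and 3. Untranslated regions were not searched, and a link between matches and the knockout was not tested. Capitals mark GGACT.
Nodal, chr10:61422988-61423028: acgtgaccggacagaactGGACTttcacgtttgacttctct
Nodal, chr10:61423550-61423590: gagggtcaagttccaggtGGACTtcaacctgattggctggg
Lefty1, chr1:180935264-180935304: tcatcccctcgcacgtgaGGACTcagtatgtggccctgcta
Fst, chr13:114453440-114453480: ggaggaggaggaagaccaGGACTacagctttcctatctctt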

How the data were processed

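Ribosome footprints were sequenced from 4 libraries, 1 per group, and each column of the deposited table was matched to a library by genotype and culture in its title; the number of columns without a library was 0. The submitters' processing notes name TopHat2 (2.0.10) and Bowtie, HTSeq (0.6.0), DESeq and CASAVA (1.8.2), with mm10 as the build. For settings, annotation version and strand handling, nothing was given in those notes. What the authors deposited is a signal, the read count of a RefSeq coding sequence divided by 1 factor per library. Dividing by the smallest step gave whole reads for 100% of values (tolerance 0.01) in every library, and median-of-ratios factors recomputed from these reads were between 0.9999 and 1.0001 of the deposited factors. The design foresaw normalised values without reads, so the count test was added later.

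The table's 5 summary entries name no gene and stayed out of all sums. Of the counts over all entries of a library, the entry for reads without a unique place made up 48.4% to 55.7%. Ambiguous reads made up 8.62% to 10.5% and reads on no feature 7.25% to 9.88%. Whether a read with several places was counted once is not stated, so these are shares of counts. Of 27442 entries 27083 matched a symbol of the RefSeq table for GRCm38.p6, the assembly of mm10. Entries were summed to 20716 genes. Log2 folds and calls used a pseudocount of 1, which understates low genes; folds printed with an interval are ratios without it; intervals of read ratios are 95% conditional exact binomial, computed with scipy 1.17.1. Windows of 28 bases were searched on both strands of the GRCm38.p6 primary sequences, and coding sequences came from the same assembly. The additive count test used edgeR 4.0.16 and DESeq2 1.42.0; both were tested on simulated data.

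Genes were named by rule, starting with all 9 members. Of the pathway list the rule took up to 4 genes in each direction per comparison that reached 100 in one of its libraries. Fixed receptors, Smads and markers were named as well. Tgfb2, Gdf11, Inha, Inhbc, Tgfb3, Eomes, Furin, Tgfbr2, Skil, markers beyond the fixed ones and further comparisons of named genes were chosen after values were seen. So were the target genes Fgf5, Lhx1, Mixl1 and T. Some genes that the rule names are not reported here. Members, lists and rules were chosen with earlier results of these data known. Alternatives were other pseudocounts, filters and scalings, 1 entry per gene, and, added after the data were seen, members with few copied windows, length over windows without a copy, and the count tests.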

Additional observations from a re-analysis of the deposited data

Results flagged for a closer look

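From ESCs to EBs, 4 genes of the set went in opposite directions in WT and Mettl3-KO, with both counting intervals excluding no change; 8.19% of all genes compared were likewise lower in WT EBs and higher in Mettl3-KO EBs. The difference of the log2 changes, knockout minus WT, was 4.69 for Inhbb, 3.35 for Lefty2, 1.83 for Nodal and 0.58 for Gdf3. Each was lower in WT EBs and higher in Mettl3-KO EBs than in the matching ESC library, although Gdf3 by only 1.12-fold in the knockout. Gdf3 had 1896 reads in Mettl3-KO EBs and 4730 in Mettl3-KO ESCs. Intervals narrow as reads rise, so the share of all genes covers genes of unlike depth. With 1 library per group the difference between genotypes was not tested.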

How the results depend on the processing

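No paired analysis was possible because each group had 1 library and no replicate numbers link them; the additive count test compares the stages within genotype. Over pseudocounts, filters, scalings and entry choice, 304 log2 folds of the 9 genes stayed within their counting interval and 6 did not. Of the called folds, 0 changed sign. Filters and entry choice alter no value of these genes, so their folds were unchanged by construction and are no check. All 6 moves came with equal totals or the same upper quartile. The count of members apart in ESCs went from 2 to 1 with equal totals, which Tdgf1 left, and to 0 over the 6 members with under 10% of windows copied, which leave out Lefty1, Lefty2 and Tdgf1. Over those 6, the count went from 5 to 3 for WT EBs against WT ESCs and from 4 to 2 for Mettl3-KO EBs against Mettl3-KO ESCs. Other pathway genes apart numbered 16 in place of 9 in ESCs and 19 in place of 10 for the WT stages with no filter, and 5 in ESCs with a mean of at least 100. In EBs they numbered 23 with no filter (14 higher and 9 lower) in place of 16 (11 and 5). With length over windows without a copy, 23 of 36 ranks per length were kept. DESeq2 called 322 genes for genotype and 375 for stage where edgeR called 0 and 25; the cause was not tested. Without a filter more genes were tested and the all-gene counts went from 1451, 2646, 1859, 1543 and 2308 to 3177, 5196, 4013, 3571 and 4955 (ESCs, EBs, WT stages, knockout stages, difference), and with a mean of at least 100 to 724, 1613, 965, 832 and 1354. Depth limits Inhbb in WT EBs (8 reads) and Inhba in ESCs (24 and 29 reads).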
